A study of Saccharomyces cerevisiae with 25 samples.

Results

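The nuclear genes for the machinery that brings proteins into yeast mitochondria were followed through 6 hours without phosphate. They are the genes whose names consist of TIM, TOM or PAM and a number, without TIM11, TOM1 and PAM1, together with SAM35, SAM37, SAM50, MIA40, SSC1, HSP60, HSP10, MGE1, MAS1 and MAS2. The rule found 34 genes of the 5383 genes listed with a value, and all 34 passed the filter on low values and were tested.

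The cells were Saccharomyces cerevisiae of background BY4741, and every library came from a strain with the genotype pho84pr-YFP, pho90_OX: it carries YFP under the PHO84 promoter and overexpresses PHO90, a low-affinity phosphate transporter. The sources used here do not give the promoter that drives PHO90 or the number of clones, and no control strain was analysed here. One library was from high-phosphate medium (0 min), and 24 were taken at 15 min intervals up to 360 min after the washed cells were placed in medium without phosphate. With 1 library per time point, 8 successive libraries were taken as the samples of a window, called early (up to 120 min), middle (from 135 until 240 min) and late (from 255 min); nothing says that they came from separate cultures, so a p-value measures only the spread between these libraries.

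Nearly all mitochondrial proteins are made in the cytosol and imported. They enter through the TOM complex of the outer membrane. Barrel proteins are then inserted by the SAM complex, small cysteine-rich proteins are trapped by the MIA40 disulfide relay, carriers are led by the small TIM chaperones to the TIM22 translocase, and proteins with a presequence pass the TIM23 translocase. The matrix Hsp70 SSC1 and its co-chaperones pull these in, the MAS1-MAS2 peptidase removes the presequence, and the HSP60-HSP10 chaperonin folds the product.

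The libraries held between 450744 reads (15 min) and 2271193 reads (90 min) in listed genes, with medians of 1382080 reads early and 612972 reads late. Each value is a log2 of RPM, the reads of a gene scaled to a library total of 1000000, and genes under 15 reads in a library carry no value there. Cytosolic ribosomal protein genes took 34.3% ± 1.98 of the reads early and 9.45% ± 2.11 late (SD, n = 8 each). The value of PHO90, the overexpressed gene, ran from 10.68 log2 RPM at 0 min to 12.40 at 315 min, and no library without the construct was analysed here. Because RPM is a share, the fall of the ribosomal protein genes moves the others: the median tested gene was 0.45 higher on the log2 scale in the late than in the early window, 0.28 higher in the middle than early, and 0.18 higher in the late than in the middle window. In a bulk culture, fewer cells with a transcript and less of it per cell cannot be told apart.

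The import genes took between 0.550% and 0.721% of the reads in every library after the transfer. Their summed share was 0.677% ± 0.0426 early, 0.645% ± 0.0242 in the middle and 0.613% ± 0.0338 late (SD over 8 libraries). The 0 min library, at 0.517%, was the lowest of the 25, and the highest was the 30 min library at 0.721%. Without the abundant chaperone genes HSP10, HSP60 and SSC1 the shares were 0.396% at 0 min, 0.488% early, 0.474% middle and 0.457% late, in the same order.

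In no contrast between windows was any of the 34 called, where a call needs a Benjamini-Hochberg adjusted p under 0.05 in limma over 4343 genes and a log2 difference of at least 1. Of all tested genes, 13.8% were called higher and 3.41% lower in the late than in the early window. For the middle against the early window these shares were 4.51% and 2.81%, and for the late against the middle window 0.714% and 0.0921%. The 95% intervals of the 34 late minus early differences lay between -0.77 (TOM5) and 0.93 (TIM21), inside the size limit on both sides, and those of the other contrasts lay between -0.57 and 0.81 (middle minus early) and between -0.54 and 0.86 (late minus middle). The standard errors of the late minus early differences were 0.073 to 0.158.

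**Figure D1:**
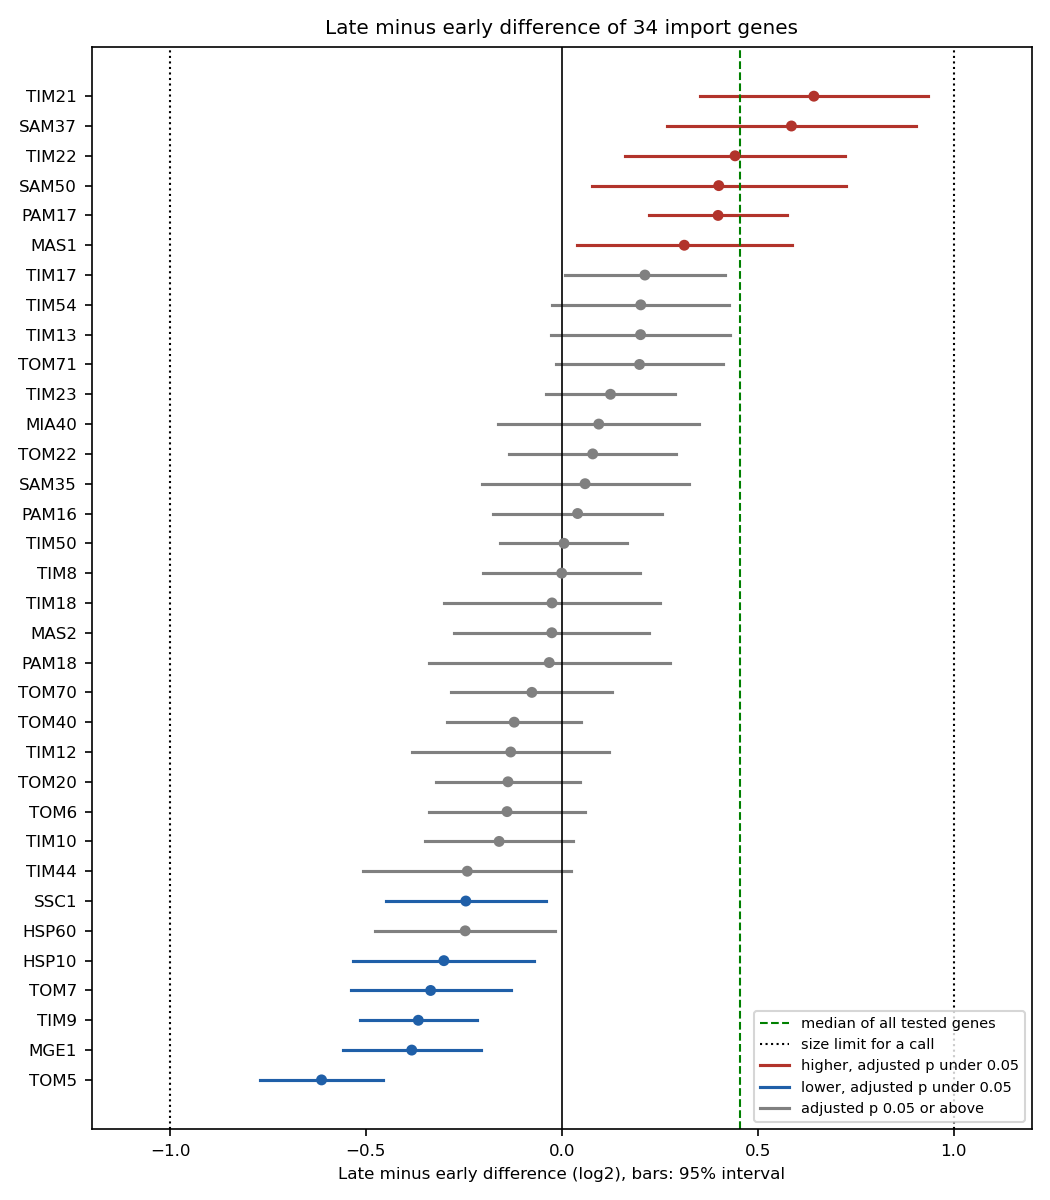
Late minus early difference in log2 RPM (x axis) of the 34 import genes (y axis), with 95% intervals from limma (n = 8 libraries a window, fewer where a value is under the floor). All intervals lie inside the dotted size limits of -1 and 1, and 32 of the 34 points lie left of the dashed median of all tested genes at 0.45.

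The median member differed by -0.01 between the late and early windows, with 16 members above and 18 below 0, while the median of all tested genes was 0.45. At an adjusted p alone, 6 members were higher late and 6 were lower, against 63.8% and 7.32% of all tested genes. The 6 lower ones were TOM5, MGE1, TIM9, TOM7, HSP10 and SSC1, with mean levels of 7.48 to 9.89 log2 RPM and a value in every library. The 6 higher ones were TIM21, SAM37, TIM22, SAM50, PAM17 and MAS1, with mean levels of 4.94 to 7.15, and 4 of these 6 had a library under the 15-read floor. That floor was at a median of 10.97 RPM in the early and 24.5 RPM in the late libraries; its part in these differences was not tested beyond setting the missing values to it, which left 5 of the 6 past an adjusted p of 0.05 and put MAS1 at 0.205 with an adjusted p of 0.214. At an adjusted p alone, 4 members were higher and 2 lower in the middle than in the early window (48.2% and 7.81% of all genes), and 2 were higher and 3 lower in the late than in the middle window (20.1% and 4.79% of all genes).

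Relative to the other genes rather than to all reads, most members were lower late. With every library centred on the median of its complete genes, the median member differed by -0.47 between the late and early windows, and all members but TIM21 and SAM37 were below 0. TOM5 was then called lower, at -1.07, and no member was called higher (4.37% and 4.61% of all genes). At an adjusted p alone 28 members were lower and 0 higher after centring, against 25.7% and 24.7% of all genes. The sign changed in 14 of the 34, so the directions given in RPM for members between 0 and 0.45 hold on that scale only.

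**Figure D2:**
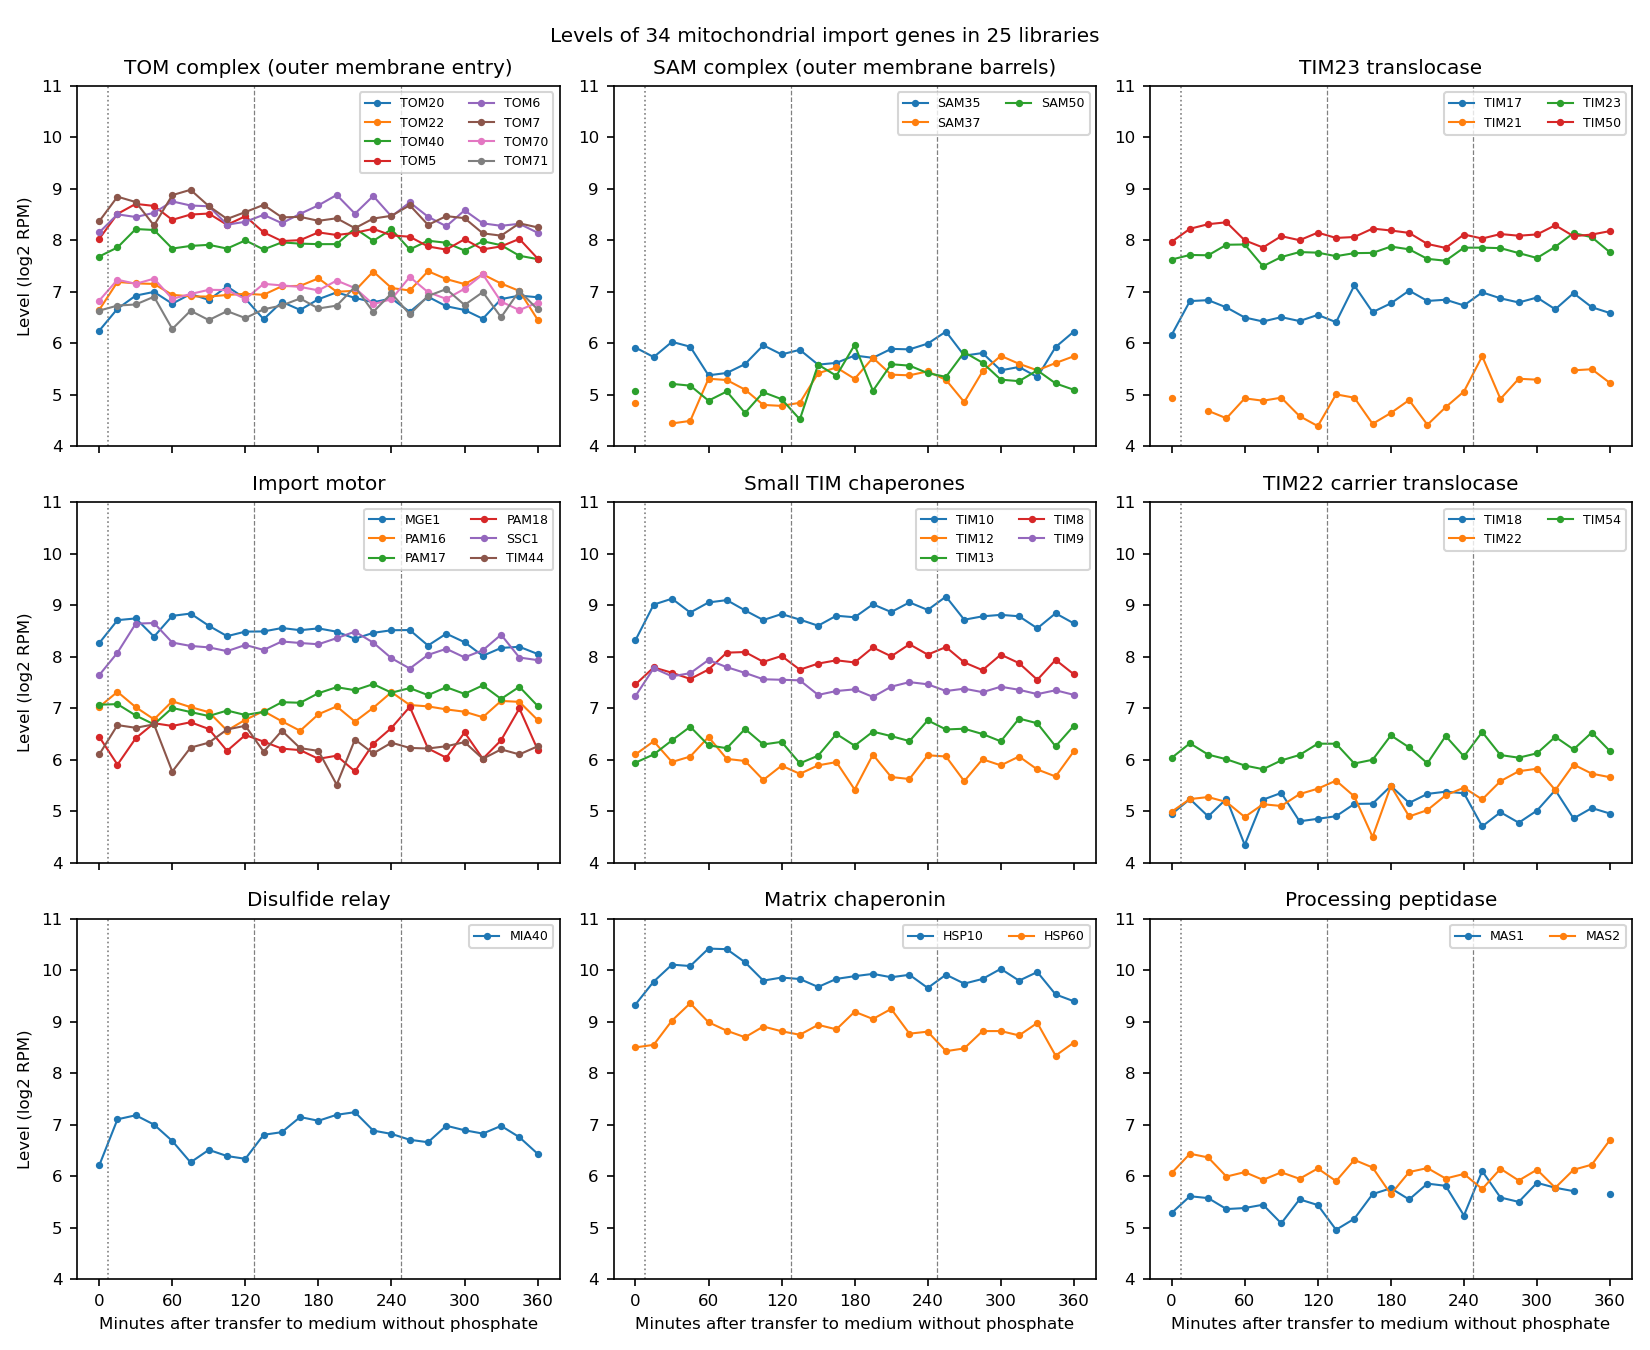
Level in log2 RPM (y axis) of each import gene in the 25 libraries by minutes after transfer (x axis), grouped by role. Dotted and dashed vertical lines separate the 0 min library and the early, middle and late windows, and gaps are values under the floor. Most lines run level, TOM5 steps down after 120 min, and the medians of TIM21 and TIM22 are higher late (5.31 and 5.70) than in the middle window (4.83 and 5.30).

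At the outer membrane, the TOM complex has the channel TOM40, the receptors TOM20, TOM22, TOM70 and TOM71, and the small subunits TOM5, TOM6 and TOM7. The small subunits were the strongest TOM transcripts per kb of coding length. TOM7 had 1983, TOM6 1974 and TOM5 1923 RPM per kb on average over the 24 libraries, while TOM40 had 212.5 and TOM70 70.7. Much of this gap comes from dividing by short lengths, 153 bases for TOM5 and 1164 for TOM40. Before that division the mean levels were 8.49, 8.51, 8.17, 7.94 and 7.02 log2 RPM, in the same order of genes. The median late minus early difference of the 8 TOM genes was -0.13. TOM5, which passes precursors from the receptors to the channel, differed most.

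TOM5 (chromosome XVI, 797557 to 797709) had 8.03 log2 RPM at 0 min. Its lowest, median and highest levels were 8.30, 8.51 and 8.71 in the early window, 7.99, 8.13 and 8.22 in the middle window and 7.65, 7.88 and 8.07 in the late window. All 8 early libraries thus lay above all 16 later ones. The late minus early difference was -0.61 ± 0.077 (SE, limma adjusted p = 6.39e-08), of which -0.40 lay between the early and middle windows (limma adjusted p = 9.59e-05) and -0.21 between the middle and late windows (limma adjusted p = 0.0424). The latter step did not pass with any 1 of 10 libraries left out (limma adjusted p up to 0.0884, without the 360 min library) or without the 15, 345 and 360 min libraries (limma adjusted p = 0.0783). By the hour, its mean went from 8.57 and 8.45 through 8.08 and 8.14 to 7.95 and 7.85.

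TOM5 also fell relative to its own channel. TOM40 (chromosome XIII, 668492 to 669655) had 7.69 log2 RPM at 0 min and 7.84, 7.90 and 8.22 (lowest, median, highest) early, 7.82, 7.95 and 8.23 in the middle and 7.64, 7.87 and 7.99 late. Its windows overlapped, and its late minus early difference was -0.12 (limma adjusted p = 0.192). The log2 ratio of TOM5 to TOM40 in the same library does not depend on how libraries are scaled. It had a value of 0.34 at 0 min, and window means of 0.54 ± 0.077 (early), 0.11 ± 0.161 (middle) and 0.05 ± 0.191 (late), with the SD of 8 libraries. The early libraries lay between 0.46 and 0.65 and the late ones between -0.16 and 0.33, without overlap. The ratio fell by 0.49 from early to late, or 1.41-fold, with an exact two-sided permutation p = 0.0001554, the smallest that 8 against 8 libraries can give, and 0.00342 after adjustment over the 22 pairs tested. Over the alternatives and left-out libraries the difference ranged from -0.53 to -0.43 and the adjusted exact permutation p from 0.00342 to 0.00684. TOM5 and TOM40 both had values in all 25 libraries.

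The other TOM pairs did not pass. The ratio to TOM40 differed by -0.02 for TOM6 (adjusted exact permutation p = 0.915), by -0.21 for TOM7 (adjusted exact permutation p = 0.336) and by 0.20 for TOM22, the central receptor (adjusted exact permutation p = 0.119). The TOM22 ratio depended on 1 library: without the 360 min library its difference was 0.26 with an adjusted exact permutation p of 0.0171. TOM71, the less abundant copy of the receptor TOM70, had a log2 ratio to TOM70 of -0.44 ± 0.104 early and -0.17 ± 0.341 late (n = 8 each, adjusted exact permutation p = 0.145). Without the 255 min library that difference was 0.35 with an adjusted exact permutation p of 0.00342.

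TOM7 (chromosome XIV, 493366 to 493548), which modulates assembly of the TOM complex, had 8.37 log2 RPM at 0 min. Its lowest, median and highest levels were 8.29, 8.71 and 8.98 early, 8.24, 8.44 and 8.69 in the middle and 8.09, 8.32 and 8.68 late. The windows overlapped, and the late minus early difference was -0.33 ± 0.10 (SE, limma adjusted p = 0.00399). TOM6, TOM20, TOM22, TOM40, TOM70 and TOM71 differed by -0.14 to 0.20 and none passed an adjusted p of 0.05.

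**Figure D3:**
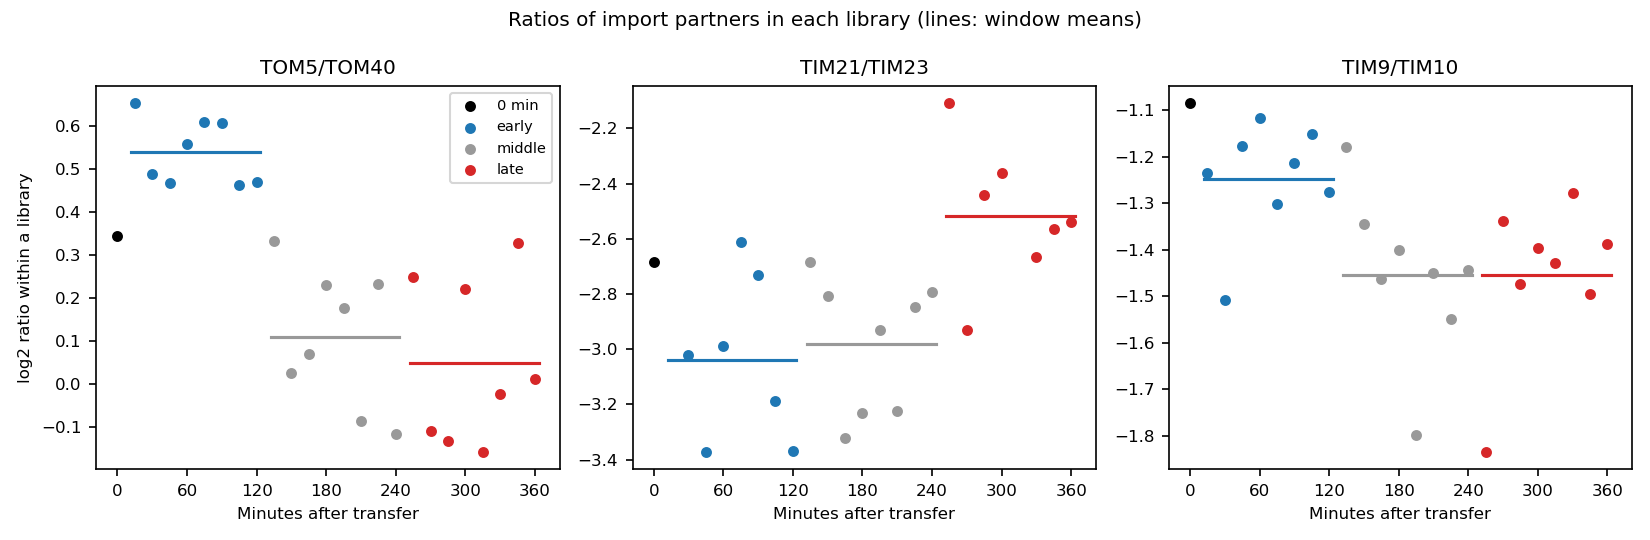
Log2 ratio within each library (y axis) of TOM5 to TOM40, TIM21 to TIM23 and TIM9 to TIM10 by minutes after transfer (x axis), with window means as lines. Only the TOM5 to TOM40 ratio passed the test over 22 pairs, with early values of 0.46 to 0.65 and late values of -0.16 to 0.33.

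The SAM complex consists of the barrel SAM50 and the peripheral subunits SAM35 and SAM37. Its genes were among the weakest of the set, with 27.3 RPM per kb for SAM50, 40.4 for SAM37 and 55.9 for SAM35. SAM37 (chromosome XIII, 391532 to 392515) had 4.84 log2 RPM at 0 min. Its lowest, median and highest levels were 4.45, 4.80 and 5.31 in 7 early libraries, 4.85, 5.41 and 5.72 in the middle window and 4.86, 5.54 and 5.76 in the late window; the 15 min library was under the floor.

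The SAM37 windows overlapped and the late minus early difference was 0.59 ± 0.155 (SE, limma adjusted p = 0.00144). SAM37 was also the 1 member of 34 called by the trend over time, a spline in limma with a fitted range of at least 1, against 32.2% of all tested genes. Its fitted level rose from 15 to 360 min with a range of 1.18 (limma adjusted p = 0.000778). SAM37 had no value at 15 min, so the lowest fitted level was extrapolated from the later libraries. The floor at 15 min was 33.3 RPM, above the early median of SAM37 of 28.0 RPM. The call did not hold in every setting: the range was 0.89 without the 15, 345 and 360 min libraries, 0.93 with missing values set to the floor and 0.70 after centring, where the limma adjusted p was 0.222. At an adjusted p alone the trend passed for 16 of the 34, against 78.7% of all genes.

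SAM50 (chromosome XIV, 581920 to 583374) had 5.08 log2 RPM at 0 min. Its levels were 4.65, 5.05 and 5.21 (lowest, median, highest) in 7 early libraries, 4.52, 5.50 and 5.97 in the middle and 5.10, 5.32 and 5.83 in the late window. The late and early values overlapped, with a difference of 0.40 ± 0.158 (SE, limma adjusted p = 0.0258) that had a limma adjusted p of 0.0655 without the 90 min and 0.0603 without the 270 min library. SAM35 differed by 0.06, and neither subunit's ratio to SAM50 passed (adjusted exact permutation p of 0.239 for SAM35 and 0.667 for SAM37).

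At the inner membrane, TIM23 and TIM17 form the presequence translocase, TIM50 is its receptor and TIM21 links it to the TOM complex and the respiratory chain. TIM50 hardly differed: its lowest, median and highest levels were 7.86, 8.12 and 8.35 early and 8.04, 8.12 and 8.30 late, a difference of 0.01 with a 95% interval of -0.16 to 0.17. TIM23 differed by 0.12 and TIM17 by 0.21, with limma adjusted p-values of 0.165 and 0.0576.

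TIM21 (chromosome VII, 554248 to 554967) had 4.94 log2 RPM at 0 min. Its lowest, median and highest levels were 4.39, 4.69 and 4.95 in 7 early libraries, 4.42, 4.83 and 5.07 in the middle window and 4.92, 5.31 and 5.75 in 7 late libraries. Of the 7 late values, all but that of the 270 min library lay above all early ones. The 315 min library had no value and a floor of 30.4 RPM. It was thus also below the highest early value, 30.8 RPM at 90 min. The late minus early difference was 0.64 ± 0.142 (SE, limma adjusted p = 0.000243), and 0.58 of it lay between the middle and late windows (limma adjusted p = 0.00488). At this level the libraries hold few reads per gene, and the 15 and 315 min libraries were under the floor.

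Against its partner TIM23 the log2 ratio of TIM21 went from -3.04 ± 0.294 to -2.52 ± 0.255 (SD, n = 7 each). That difference of 0.52 had an exact two-sided permutation p = 0.00466 and 0.0513 after adjustment over the 22 pairs. It passed when the 75, 90, 270, 315 or 360 min library was left out, with adjusted exact permutation p-values of 0.0256 to 0.0449. The 315 min library holds no TIM21 value. Leaving it out changed only the adjustment, through the other pairs.

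The import motor is SSC1, the matrix Hsp70, its nucleotide exchange factor MGE1, the J-protein PAM18 and its partner PAM16, the anchor TIM44 and PAM17. The median late minus early difference of these 6 genes was -0.14, with the members on both sides. MGE1 (chromosome XV, 774573 to 775259) had 8.27 log2 RPM at 0 min. Its levels were 8.39, 8.66 and 8.84 (lowest, median, highest) early, 8.35, 8.50 and 8.56 in the middle and 8.02, 8.21 and 8.52 late. The early and late ranges overlapped between 8.39 and 8.52, and the difference was -0.38 ± 0.086 (SE, limma adjusted p = 0.000270). By the hour the MGE1 mean went 8.66, 8.58, 8.53, 8.46, 8.37 and 8.11.

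PAM17 (chromosome XI, 565299 to 565892), which connects TIM23 and the motor, went the other way in RPM. It had 7.07 log2 RPM at 0 min and 6.69, 6.90 and 7.08 (lowest, median, highest) early, 6.93, 7.30 and 7.47 in the middle and 7.05, 7.34 and 7.45 late. The early and late ranges overlapped only between 7.05 and 7.08. The late minus early difference was 0.40 ± 0.087 (SE, limma adjusted p = 0.000185), most of it (0.34) by the middle window (limma adjusted p = 0.00158). After centring, the late minus early difference of PAM17 was -0.06 (limma adjusted p = 0.536). SSC1 differed by -0.25 (limma adjusted p = 0.0293, and 0.0502 to 0.0770 without the 30, 45, 255 or 360 min library), TIM44 by -0.24 (limma adjusted p = 0.0963), and PAM16 and PAM18 by 0.04 and -0.03. None of the 4 motor pairs tested, PAM16 and PAM17 to PAM18 and TIM44 and MGE1 to SSC1, passed over all libraries, and PAM17 to PAM18 passed (0.62, adjusted exact permutation p = 0.0481) without the 15, 345 and 360 min libraries.

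The small TIM chaperones escort hydrophobic precursors through the intermembrane space as rings of TIM9 with TIM10 and of TIM8 with TIM13, while TIM12 docks the TIM9-TIM10 ring on the TIM22 translocase. TIM10 had 1660 RPM per kb, TIM8 915, TIM9 681, TIM13 273.9 and TIM12 185.9. TIM9 (chromosome V, 117211 to 117474) had 7.24 log2 RPM at 0 min and 7.55, 7.68 and 7.94 (lowest, median, highest) early, 7.22, 7.39 and 7.54 in the middle and 7.26, 7.34 and 7.42 late.

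All 8 early TIM9 values lay above all 16 later ones. The late minus early difference was -0.37 ± 0.073 (SE, limma adjusted p = 6.48e-05), and -0.31 of it lay between the early and middle windows (limma adjusted p = 0.000763). Its ring partner TIM10 differed by -0.16 (limma adjusted p = 0.121). The TIM9 to TIM10 log2 ratio was -1.25 ± 0.122 early and -1.45 ± 0.169 late, a difference of -0.21 with an adjusted exact permutation p = 0.0615, and 0.0103 without the 30 min library. TIM8, TIM12 and TIM13 differed by 0.00, -0.13 and 0.20, with limma adjusted p-values of 0.997, 0.345 and 0.107.

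In the TIM22 complex, which inserts carrier proteins into the inner membrane, the channel TIM22 (chromosome IV, 67983 to 68606) had 4.99 log2 RPM at 0 min. Its levels were 4.89, 5.21 and 5.44 (lowest, median, highest) early, 4.50, 5.30 and 5.60 in the middle and 5.23, 5.70 and 5.91 late. The late and early ranges overlapped, the difference was 0.44 ± 0.137 (SE, limma adjusted p = 0.00537), and as for TIM21 it lay between the middle and late windows (0.45, limma adjusted p = 0.0197, and 0.0525 without the 165 min library). The other subunits, TIM54 and TIM18, differed by 0.20 and -0.03 with limma adjusted p-values of 0.102 and 0.875. The TIM18 to TIM22 ratio differed by -0.47 (adjusted exact permutation p = 0.0803), and by -0.56 (adjusted exact permutation p = 0.0222) without the 315 min library.

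MIA40, the oxidoreductase of the intermembrane space, had a course that the 8-library windows average out. It had 6.21 log2 RPM at 0 min, 7.10 at 15 min and 7.18 at 30 min, was down to 6.27 at 75 min and 6.34 at 120 min, and stood at 7.24 at 210 min. Its hourly means (n = 4 each) were 6.99 ± 0.219, 6.38 ± 0.103, 6.97 ± 0.167, 7.03 ± 0.213, 6.81 ± 0.152 and 6.75 ± 0.228. The libraries of the second hour lay below those of hours 1, 3 and 4 without overlap. The middle minus early difference was 0.32 (limma adjusted p = 0.0329). It did not pass with any 1 of 8 libraries left out (limma adjusted p up to 0.0824, without the 75 min library), and after centring it was 0.05 (limma adjusted p = 0.792). The late minus early difference was 0.09 (limma adjusted p = 0.509) and the spline did not pass (limma adjusted p = 0.0636). The dip was seen in the values first, so it has no test of its own.

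In the matrix, HSP10 (chromosome XV, 370524 to 370844), the lid of the chaperonin, was the strongest member at 2996 RPM per kb. It had 9.33 log2 RPM at 0 min and 9.78, 10.09 and 10.42 (lowest, median, highest) early, 9.66, 9.85 and 9.93 in the middle and 9.40, 9.81 and 10.03 late. The windows overlapped, with the peak at 60 min, and the late minus early difference was -0.30 ± 0.113 (SE, limma adjusted p = 0.0189, and 0.0612 without the 15, 345 and 360 min libraries). HSP60, the barrel, peaked at 9.36 log2 RPM at 45 min and differed by -0.25 with a limma adjusted p of 0.0503. The HSP10 to HSP60 ratio differed by -0.05 (adjusted exact permutation p = 0.823). Of the peptidase subunits, MAS1, the catalytic one, had 5.44 (median) early and 5.71 late, a difference of 0.31 (limma adjusted p = 0.0388, and above 0.05 with any 1 of 7 libraries left out, up to 0.0983 without the 255 min library), and MAS2 had 6.08 and 6.12, a difference of -0.03 between the means (limma adjusted p = 0.859). Without the 360 min library, the MAS1 to MAS2 ratio differed by 0.47 with an adjusted exact permutation p of 0.0220; with all libraries the difference was 0.36 and the p 0.149.

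The chaperonin genes are known targets of the heat shock factor Hsf1. A three-unit heat shock element, here GAANNTTC and TTCNNGAA sharing a repeat, lay within the 250 bases before the gene and its first 50 bases in 2 of the 34 members, HSP10 and HSP60, or 5.88%, against 0.783% of 6001 protein-coding genes searched on both strands. It is shown for both, with 10 flanking bases a side and the element in capitals, on the coding strand of the gene, which is the minus strand of chromosomes XV and XII in R64 (RefSeq).
HSP10, chrXV:370982-371014: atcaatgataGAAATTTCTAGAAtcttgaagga
HSP60, chrXII:665190-665222: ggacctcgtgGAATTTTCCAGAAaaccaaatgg
The capitals start 160 bases before the HSP10 start codon and 210 bases before that of HSP60. A single GAANNTTC or TTCNNGAA was as frequent in the members (23.5%) as in all genes (22.6%), and the stress element AGGGG was in 11.8% of the members and 21.6% of all genes. A match is a run of letters, and binding was not measured.

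Most members share a motif behind the coding sequence. The letters TGTANATA, the core that the RNA-binding protein Puf3 is known to recognise in messages for mitochondrial proteins, lay on the coding strand within 200 bases after the stop codon of 22 of the 34 members (64.7%), against 844 of 6001 genes (14.1%). The match is shown in capitals for the 5 members with the largest negative differences and for the 2 with the largest positive differences that hold one, 5′ to 3′ on the coding strand, with the position in R64 (RefSeq) and its strand.
TOM5, chrXVI:797828-797851, plus strand: gaaagacgTGTAAATAttttttaa
TOM5, chrXVI:797888-797909, plus strand: tcttcgctTGTATATAtgcgta
MGE1, chrXV:775343-775366, plus strand: cgtttactTGTATATAtttgtaaa
TIM9, chrV:117524-117547, plus strand: ttttagcaTGTAAATAtaaagaga
TOM7, chrXIV:493634-493657, plus strand: aattgacaTGTACATAaagtatat
HSP10, chrXV:370454-370477, minus strand: tatgtaccTGTAAATAggccatta
TIM22, chrIV:67931-67954, minus strand: tttatattTGTAAATAtcacctat
PAM17, chrXI:565249-565272, minus strand: tcagactcTGTATATAtacatata
The 5 members that were lowest late against early all hold the motif, while SSC1, also lower at an adjusted p alone, does not. Of the 5 highest, TIM22 and PAM17 hold it. TIM21, SAM37 and SAM50 do not, nor does MAS1, also higher at an adjusted p alone. Over the set, the median late minus early difference was -0.13 in the 22 members with the motif, 15 of them below 0, and 0.07 in the 12 without it, 3 of them below 0. The members with the motif were also the more abundant ones, with a median level of 7.31 against 6.41 log2 RPM, and the part of level in the difference was not tested. Among the 3989 tested genes whose names were found among the searched genes, the medians were 0.40 in 641 with and 0.45 in 3348 without the motif. Among mitochondrial ribosomal protein genes they were 0.29 in 67 with and 0.75 in 2 without it. Among respiratory genes they were 0.96 in 5 with and 1.07 in 30 without it.

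Most members were lower at 0 min, in high phosphate, than in the first hours without it. With 1 library at 0 min there is no test, and the 8 early libraries give the spread. Cytosolic ribosomal protein genes took 40.1% of the reads at 0 min and 31.3% to 36.8% in the early libraries, which lowers the RPM of other genes at 0 min. The comparison with 0 min was not repeated on centred libraries, and the part of this scaling in it was not tested. Of the 31 members with a value in all 8 early libraries, 16 were lower at 0 min than in any early library, or 51.6%, against 26.6% of all genes. The trait was not particular to the members. It held for 60% of 20 Hsf1 target genes, 43.3% of 67 mitochondrial ribosomal protein genes and 28.6% of 35 respiratory genes. Among 33 further import, membrane and matrix proteostasis genes, taken up below, it held for 42.4%. At 0 min 0 members were higher than in all early libraries, against 15.8% of all genes. For 7 members, HSP10, MIA40, SSC1, TIM10, TIM8, TIM17 and TOM20, the 0 min value was the lowest of all 25. The median of the 8 early libraries was above the 0 min value in 26 of 34 members. In 17 it was above the upper 95% Poisson limit of the 0 min count, which covers counting error only. For these counts, and for the 7 members lowest at 0 min, the share over all genes was not counted. Whether they are unusual was thus not tested.

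The early median exceeded the 0 min value by 0.76 for HSP10, 0.65 for TOM20, 0.64 for TIM10, 0.58 for SSC1 and 0.50 for TIM44 on the log2 scale. For TOM5 and TIM9 it was 0.48 and 0.45. Late, TOM5 was at a median of 7.88 against 8.03 at 0 min, and TIM9 at 7.34 against 7.24. TIM21, PAM17 and SAM35 were the lowest, at -0.25, -0.17 and -0.16. Over the members with values the median was 0.30, beside 0.09 over all genes, 0.54 over 20 Hsf1 target genes and 0.24 over 67 mitochondrial ribosomal protein genes. It was 0.23 over the 33 further import genes, 0.11 over 35 respiratory genes and -0.24 over 136 cytosolic ribosomal protein genes.

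**Figure D4:**
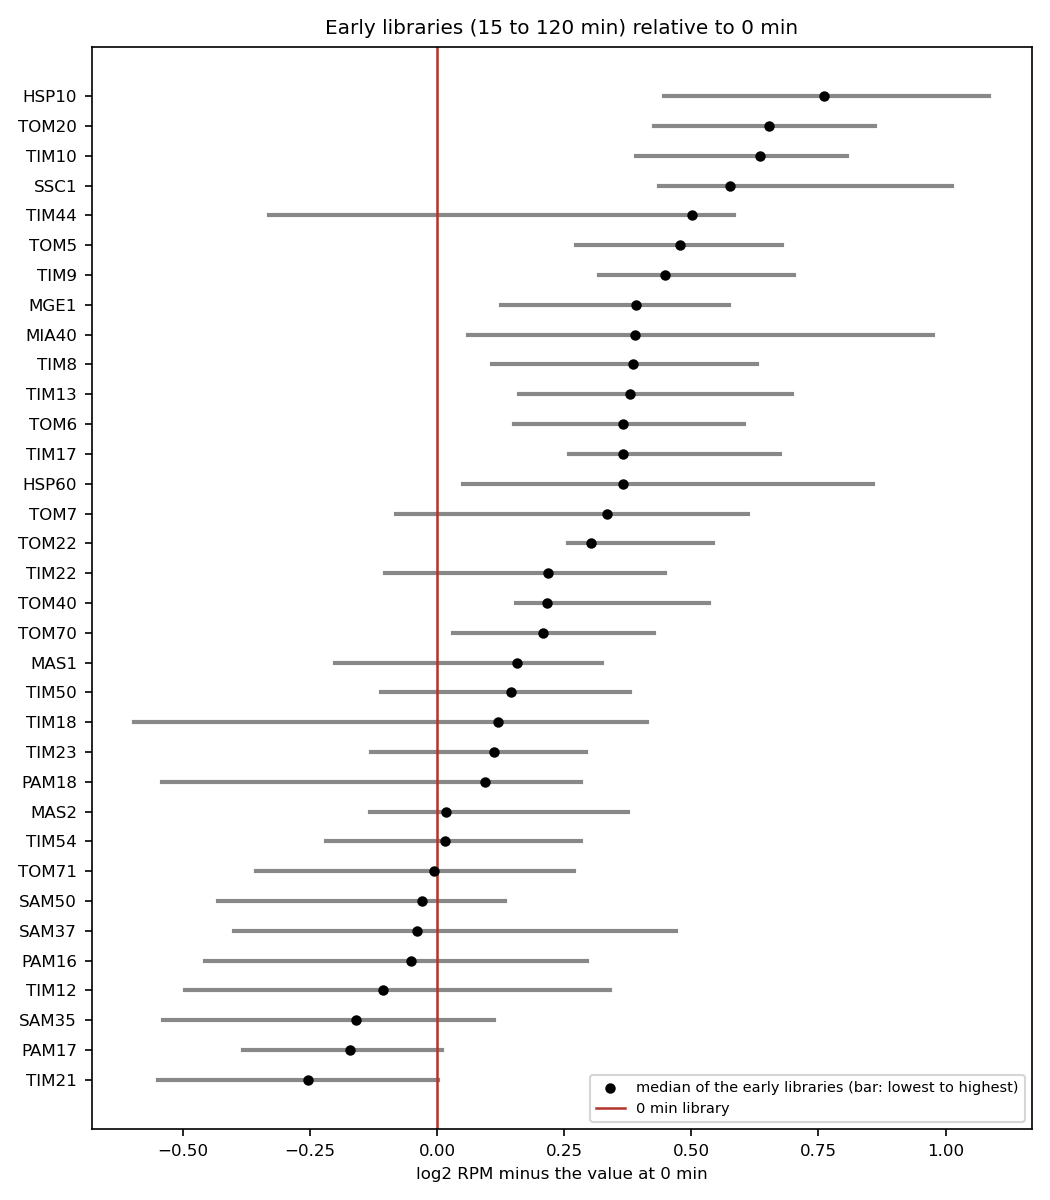
Level in the early libraries minus the level at 0 min, in log2 RPM (x axis), for each import gene (y axis); points are medians of the 8 early libraries (7 for SAM37, SAM50 and TIM21) and bars run from the lowest to the highest. For 16 genes the whole bar lies above 0, led by HSP10 with a median of 0.76.

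Other gene lists of the organelle are set beside the import genes, with the same fit. The counts use the call with the size limit, which 13.8% of all tested genes passed as higher and 3.41% as lower between the early and late windows. At an adjusted p alone these shares were 63.8% and 7.32%, and with the call after centring 4.61% and 4.37%. Of 35 tested respiratory chain and ATP synthase genes, 20 were called higher and 0 lower, with a median difference of 1.06; at an adjusted p alone 34 were higher and 1 lower. The largest were the ATP synthase inhibitor INH1 at 2.20, the succinate dehydrogenase anchor SDH4 at 1.72 and QCR10 of the cytochrome bc1 complex at 1.54. After centring, 4 of these 35 were still called higher. Of 69 mitochondrial ribosomal protein genes, 67 of which hold the TGTANATA motif, 2 were called higher (MRP8, 1.36, and RSM10, 1.19) and 0 lower, with a median of 0.29. At an adjusted p alone 33 of the 69 were higher (47.8%) and 2 lower (2.90%), both smaller shares than among all tested genes. After centring 0 were called in either direction. The difference between these lists and the import genes was not tested.

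A list of 48 further import, membrane and matrix proteostasis genes had 40 tested, of which 5 were called higher and 0 lower, with a median of 0.36. That count is near the 13.8% of all tested genes and the median is below their 0.45. They were OM45 (2.59), POR1 (1.66), OM14 (1.22), SOM1 (1.19) and HSP78 (1.18 on the log2 scale). OM45 and OM14 are abundant outer membrane proteins, POR1 is the outer membrane channel VDAC, SOM1 belongs to the inner membrane peptidase and HSP78 is a matrix disaggregase. OM45 and POR1 were also called after centring. Of 20 Hsf1 target genes 6 were called higher, led by HSP26, HSP104 and SSA4 at 4.21, 1.72 and 1.64, and 1 lower, SSA2 at -1.09. After centring 3 were called higher and 3 lower. At an adjusted p alone 7 were higher and 7 lower (35% each, against 63.8% and 7.32% of all tested genes).

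**Figure D5:**
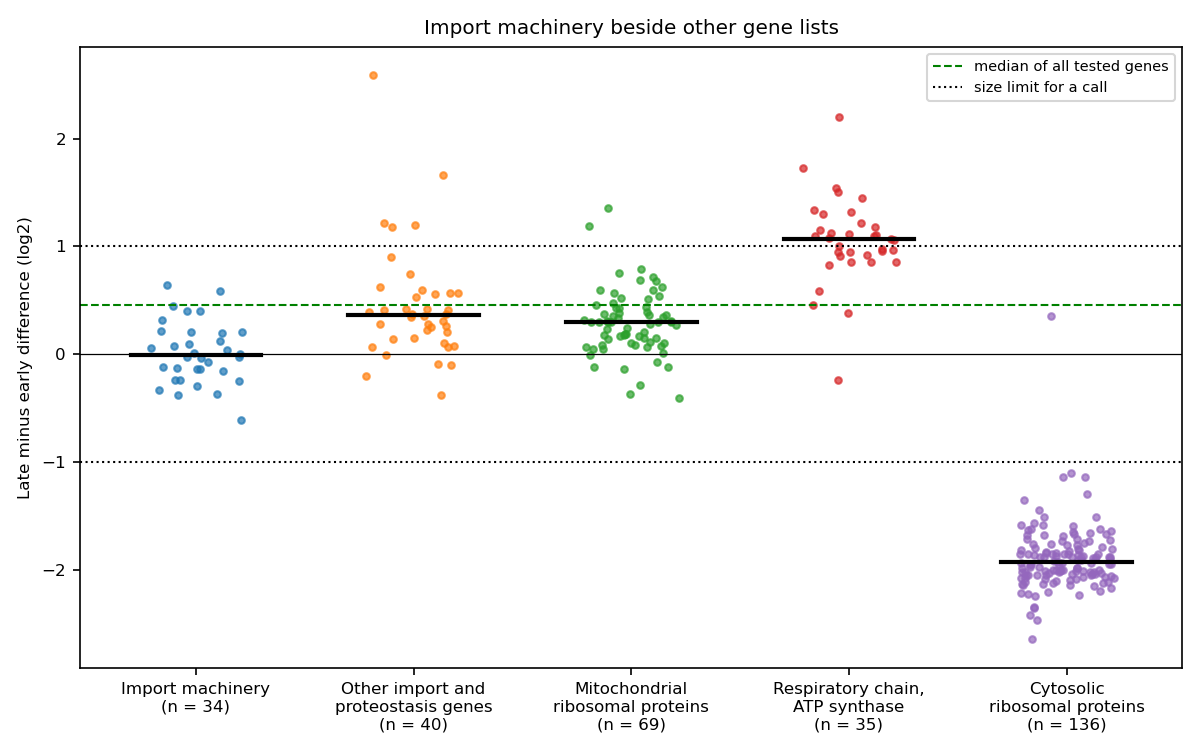
Late minus early difference in log2 RPM (y axis) of each tested gene in 5 lists (x axis), with list medians as black bars and the median of all tested genes, 0.45, as a dashed line. The import machinery is centred on -0.01 and lies inside the dotted size limits, the respiratory genes on 1.06 and the cytosolic ribosomal protein genes on -1.93.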

How the data were processed

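RNA of 25 libraries was sequenced, 1 per time point. The authors deposited 1 table of log2 values for 6650 named genes, and 51 further rows without a name held no value; every value column was used. Reads were aligned with Bowtie to R64, per the submitters' processing notes; the sources used here name no counter, annotation or strand setting. The design text speaks of normalization to the first time point, but the deposited log2 values, raised to powers of 2, sum to 1000000 in each library and are therefore used as log2 RPM. Steps in low values gave relative depth and a floor of 15 reads; 93.6% to 94.4% of values were within 0.02 of a whole read, too few for a count model.

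Tested were 4343 genes that had 20 or more values among the 24 libraries without phosphate, a mean of at least 1 RPM and no single value repeated in over 0.5 of the libraries. Missing values were left out of the fit. Windows and a natural cubic spline with 3 degrees of freedom were fitted in limma 3.58.1 (R 4.3.3, trend and robust options) on all tested genes, with Benjamini-Hochberg adjustment over all of them, two-sided, and a call at an adjusted p under 0.05 and a log2 difference or fitted range of at least 1. Ratios of 22 partner pairs were tested by exact two-sided permutation of early and late libraries, adjusted over the pairs. Both were run on simulated data with independent libraries, which cannot show their error rates for successive time points. Successive time points of 1 course are not independent cultures, and the labels give no batch. Levels between genes are RPM per kb of coding length. With no counter named, whether reads spread evenly over that length is not known. Windows for motifs were read from the RefSeq copy of R64; no member overlaps another gene annotated there.

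Every member is reported; values in each window are given for the 5 largest differences in each direction and for both partners of called pairs, and for other lists up to 3 called genes a direction, while MIA40, TIM50 and further named genes were chosen after their values were seen. Members, lists and tests were chosen with earlier results of these data known. Alternatives were scaling, filters, missing values, model options, the call rule and left-out libraries.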

Additional observations from a re-analysis of the deposited data

Results flagged for a closer look

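A library was set apart where its gap to the nearest other library of its window was large for the range of the window; of 149 groups of 8 (7 where a value is missing), 10 held such a value, and chance gives this in about 5% of groups. In the middle window these were MGE1 at 210 min (8.35 log2 RPM, the others 8.47 to 8.56), SAM37 at 135 min (4.85, the others 5.31 to 5.72) and TIM44 at 195 min (5.52, the others 6.12 to 6.56). In the late window they were TIM10 at 255 min (9.17 log2 RPM, the others 8.55 to 8.85) and TOM22 at 360 min (6.46, the others 7.02 to 7.40).

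Among the ratios, TIM9 to TIM10 stood apart at 30 min (-1.51, the other early libraries -1.30 to -1.12) and at 255 min (-1.83, the other late libraries -1.495 to -1.28). TOM22 to TOM40 stood apart at 15 min (-0.67, the other early libraries -1.06 to -0.90) and at 360 min (-1.18, the other late libraries -0.80 to -0.59). PAM16 to PAM18 stood apart at 15 min (1.42, the other early libraries 0.08 to 0.60). The 15 min library was the shallowest of the 25.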

How the results depend on the processing

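The counts of 0 members called between windows were the same in each setting that left out a single library, changed a filter or the missing values, or changed the limma options. Without the size limit, 6 members were higher and 6 lower late against early, 4 and 2 for the middle against the early window, 2 and 3 for the late against the middle window, and 16 passed the trend. With libraries centred, 1 member (TOM5) was called lower, the medians were -0.47 for the late and -0.26 for the middle window against the early one and -0.19 for the late against the middle one, 0 members were higher and 28 lower at an adjusted p alone, and 3 passed the trend (TOM5, TOM7 and MGE1). Scaled to reads outside the ribosomal protein genes, 1 member (TOM5) was lower, the medians were -0.48, -0.33 and -0.13, 0 were higher and 27 lower at an adjusted p alone, and 4 passed the trend (TIM9 with those 3). With values required in all 24 libraries, 30 members were tested, 2 were higher at an adjusted p alone and 0 passed the trend. The trend called 0 without the 15, 345 and 360 min libraries and 0 with missing values at the floor. Without those 3 libraries, 3 pairs were higher (MAS1 to MAS2, TOM22 to TOM40 and PAM17 to PAM18).

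With single libraries left out, 4 to 7 members were higher and 4 to 7 lower late against early at an adjusted p alone. For the middle against the early window these counts were 2 to 5 and 2 to 5, and with library weights 7 and 6. For the late against the middle window they were 1 to 2 and 0 to 3; the 0 lower came without the 180, 315 or 360 min library, and also without the 15, 345 and 360 min libraries together. Among the pairs, 0 to 3 were higher and 1 to 2 lower; TOM5 to TOM40 was called each time. The count of 3 higher pairs came without the 360 min library. Of the results for single members and pairs under the alternatives, 4603 kept their direction and their side of the threshold. Of the rest, 199 moved, 62 passed and 4 no longer passed, and 0 reversed a call. The 62 include the members that passed only because the size limit was dropped. For members the threshold includes that size limit, which no member passed between windows, so their window results had no call to lose. At an adjusted p alone, HSP60 (late minus middle) did not pass with any 1 of 16 libraries left out. That number was 10 for TOM5 (late minus middle), 8 for MIA40 (middle minus early) and 7 for MAS1 (late minus early). No paired analysis was possible because each time point has 1 library and the windows share no replicate numbers in the labels. Depth limits the weak genes: late libraries are the shallower, and SAM37, SAM50, TIM21 and MAS1 have libraries under the floor.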
